A study of Caenorhabditis elegans with 2 samples.

Results

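Peaks of the T-box transcription factor TBX-7 at small nucleolar RNA (snoRNA) genes were taken from chromatin immunoprecipitation and sequencing (ChIP-seq) of Caenorhabditis elegans embryos. The members were all peaks of the pooled list, called by the authors on both replicates together, whose summit lay within 200 bp of an annotated snoRNA gene. There were 106 of them among 8759 pooled peaks, and some snoRNA genes had more than 1. Of the 106, 44 were also among the 690 peaks of the authors' reproducible list, kept after an irreproducible discovery rate (IDR) test. The authors label the pooled list as peaks and background, the input for the IDR test, so it also holds weak entries. Of its 8759 entries, 905 (10.3%) had a −log10 q of at least 2, so a pooled summit alone is not a shown site of binding. All values come from 1 group of 2 biological replicates: whole late embryos of hermaphrodite strain OP311, collected 3 hours after synchronization by egg bleaching. The strain is a transgenic line that stably expresses TBX-7 with a C-terminal GFP-FLAG tag, and an anti-GFP antibody pulled down the chromatin, so the peaks describe the tagged protein. No embryos without the transgene and no peak list of another factor were analysed here, so whether these peaks depend on TBX-7 was not tested.

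Small nucleolar RNAs guide chemical modification of ribosomal and spliceosomal RNA. Box C/D snoRNAs direct ribose methylation and box H/ACA snoRNAs direct pseudouridylation, each within a protein complex. Some are cut out of the introns of host genes, and others are transcribed from promoters of their own. Transfer RNA (tRNA) genes are read by RNA polymerase III from promoter elements inside the gene, the A box and the B box, which the factor TFIIIC binds, and a run of T ends the transcript. T-box factors bind DNA through a short core that contains GGTGT.

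The sequence just upstream of many of the snoRNA genes at IDR peaks resembled the inside of a tRNA gene. The following stretches run 5′ to 3′ on the snoRNA strand in ce11, read from the RefSeq genome sequence, from 105 bases before the annotated start of the snoRNA to its first 15 bases, so that each shows the place where the summit lay. Capitals mark the 8 bases matched to the A-box word TGGCNNAG and the 9 bases matched to the B-box word GTTCGANNC, where N is any base and up to 1 mismatch was allowed in each word. The first 7 genes were picked because they hold the pair and lie at strong peaks. After them stand 3 genes at IDR peaks that lacked it at this setting, ZK994.7, W01C9.6 and C46C2.8, and 1 tRNA gene in full for comparison. In all, 19 of the 44 IDR members lacked the pair at their nearest gene, among them F59C6.15 and ZK265.10, which are 2 of the 3 strongest at independent genes.
C51F7.3 (V:12303603-12303722, plus strand): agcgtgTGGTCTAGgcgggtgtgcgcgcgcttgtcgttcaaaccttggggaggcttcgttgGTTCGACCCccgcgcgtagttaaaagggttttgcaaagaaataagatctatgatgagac
Y43F8C.22 (V:19643173-19643292, minus strand): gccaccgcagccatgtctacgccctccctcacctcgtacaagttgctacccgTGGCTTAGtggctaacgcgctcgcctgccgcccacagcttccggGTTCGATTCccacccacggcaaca
C05D2.15 (III:5602165-5602284, minus strand): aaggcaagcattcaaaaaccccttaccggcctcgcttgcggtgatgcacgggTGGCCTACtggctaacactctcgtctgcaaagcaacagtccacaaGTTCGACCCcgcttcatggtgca
M106.6 (II:10840212-10840331, plus strand): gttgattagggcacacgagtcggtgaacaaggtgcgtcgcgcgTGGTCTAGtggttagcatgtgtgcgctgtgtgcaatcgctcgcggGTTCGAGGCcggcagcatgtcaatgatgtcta
C04G6.12 (II:5105217-5105336, minus strand): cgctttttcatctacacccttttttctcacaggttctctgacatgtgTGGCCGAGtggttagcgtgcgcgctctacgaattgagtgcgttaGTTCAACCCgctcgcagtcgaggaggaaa
W03C9.9 (II:11960793-11960912, plus strand): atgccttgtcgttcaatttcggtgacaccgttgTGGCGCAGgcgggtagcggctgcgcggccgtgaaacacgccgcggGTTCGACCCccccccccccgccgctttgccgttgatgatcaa
T06C12.16 (V:15873912-15874031, minus strand): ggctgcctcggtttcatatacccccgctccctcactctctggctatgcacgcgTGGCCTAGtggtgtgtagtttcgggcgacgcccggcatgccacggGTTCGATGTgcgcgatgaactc
ZK994.7 (V:8500474-8500593, plus strand): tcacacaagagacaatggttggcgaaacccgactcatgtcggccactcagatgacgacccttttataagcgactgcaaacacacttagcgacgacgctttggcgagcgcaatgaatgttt
W01C9.6 (II:8547104-8547223, plus strand): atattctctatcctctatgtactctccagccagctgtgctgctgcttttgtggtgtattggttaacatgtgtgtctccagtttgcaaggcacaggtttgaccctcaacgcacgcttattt
C46C2.8 (IV:9191319-9191438, minus strand): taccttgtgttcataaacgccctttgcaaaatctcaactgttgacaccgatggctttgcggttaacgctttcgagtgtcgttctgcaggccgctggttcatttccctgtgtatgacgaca
tRNA gene WBGene00014333 (X:9743589-9743660, plus strand): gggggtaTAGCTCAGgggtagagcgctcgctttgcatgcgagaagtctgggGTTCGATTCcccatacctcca

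The word pair was then counted upstream of all 346 annotated snoRNA genes, on the snoRNA strand, from 120 bases before the start to 20 bases into the gene, with the B word starting 20 to 70 bases after the A word so that the 2 words never overlap. The pair was found at 26 of the 45 genes with an IDR summit within 200 bp (57.8%, exact 95% interval 42.2 to 72.3), against 10 of 56 genes with a pooled summit but no IDR summit (17.9%, interval 8.91 to 30.4) and 6 of 245 genes with no pooled summit (2.45%, interval 0.904 to 5.25). The same windows read on the other strand held it at 6 of 346 genes (1.73%), and windows of the same length at the starts of protein-coding genes held it at 133 of 19973 (0.666%). Within tRNA genes the pair was found at 519 of 612 (84.8%). Read the other way, 26 of the 42 snoRNA genes with the pair had an IDR summit (61.9%) and 36 of 42 had a pooled summit (85.7%), against 19 (6.25%) and 65 (21.4%) of the 304 genes without it. These counts describe a pattern that was chosen after the sequences had been seen, and they carry no test. A match to the letters is not a shown binding site of any factor.

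The pair depended on how much mismatch was allowed. With exact words it was found at 6 of the 45 genes with an IDR summit (13.3%), against 3 of the 301 genes without one (0.997%) and 1 of 19973 coding starts. With up to 2 mismatches a word it was found at 40 of the 45 (88.9%), but then also at 162 of the 301 other snoRNA genes (53.8%) and at 37.3% of coding starts, so that looser setting separates the groups less. The 2 replicates gave near equal shares: among the strongest 690 peaks of each list, 24 of 41 genes with a summit held the pair in replicate 1 (58.5%) and 24 of 43 in replicate 2 (55.8%).

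**Figure D1:**
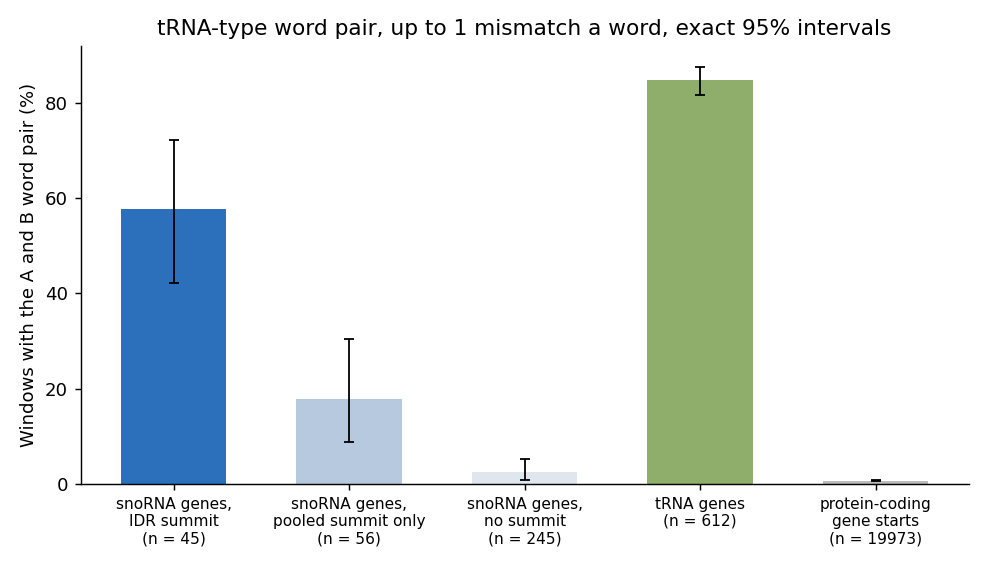
Percent of windows that hold the A-box and B-box word pair with up to 1 mismatch a word, for snoRNA genes by the kind of summit beside them, for tRNA genes (searched within the gene) and for starts of protein-coding genes; bars are shares and whiskers exact 95% intervals. The pair was found at 57.8% of snoRNA genes with an IDR summit, 17.9% of those with a pooled summit only, 2.45% of those with none, 84.8% of tRNA genes and 0.666% of coding starts.

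Both the distance between the words and their place before the snoRNA varied little. Across the 26 genes with the pair and an IDR summit, the A word start and the B word start lay a median of 44 bases apart (quartiles 44 and 45, range 33 to 67). The 67 was at H04D03.5, where an equal match to the A word also lay nearer the B word and the farther match was used. In tRNA genes the same distance had a median of 45 bases (quartiles 44 and 54.0, range 36 to 68). The B word started a median of 14.0 bases upstream of the annotated snoRNA start (median position -14.0, quartiles -16.0 and -11.2), and the A word a median of 58 bases upstream (median position -58). Of the 25 IDR peaks whose nearest snoRNA gene held the pair, 18 had their summit between the first base of the A word and the last base of the B word. At the 67 IDR peaks whose nearest tRNA gene held the pair, 29 did. The summit lay a median of 26 bases after the A word start at the snoRNA genes (quartiles 11.0 and 41.0) and 4.00 bases after it at the tRNA genes (quartiles -25.5 and 36). The difference between the snoRNA and tRNA genes was not tested.

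**Figure D2:**
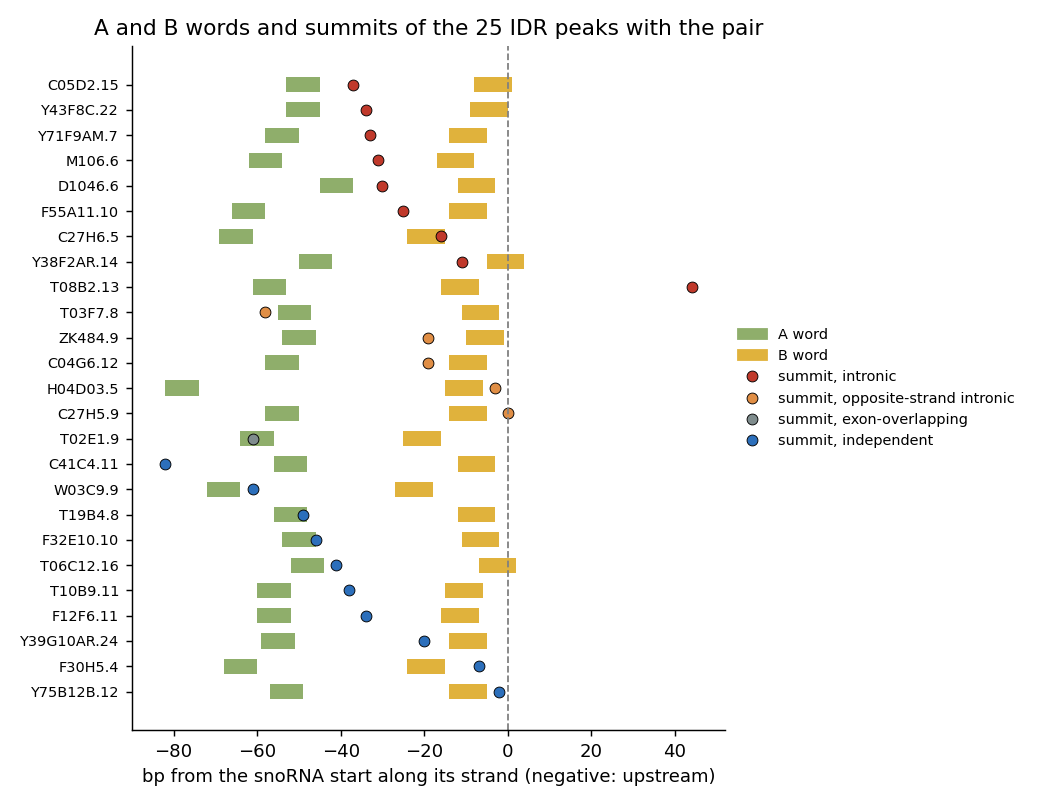
Position of the A word (green), the B word (yellow) and the pooled summit (dots, coloured by gene class) at the 25 IDR peaks whose nearest snoRNA gene holds the pair, in bp from the snoRNA start along its strand; intronic genes stand at the top and independent genes at the bottom. In 18 of the 25 rows the summit lies within the stretch from the A word to the B word, and T08B2.13 stands apart with its summit 44 bp into the gene. At H04D03.5 the A word drawn is the farther of equal matches.

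The pair was present in each class of snoRNA gene, at 10 of the 13 intronic genes with an IDR summit (76.9%), 5 of the 6 that lie in introns of the opposite strand, 1 of the 6 that overlap a coding exon, and 10 of the 20 independent genes (50%). Among genes with no IDR summit it was present at 11 of 129 intronic (8.53%) and 3 of 104 independent genes (2.88%). The annotated ends of these genes were also alike. TTTT was sought on the snoRNA strand in the last 5 bases of the gene and the 25 bases after it. It was found at 25 of 26 genes with the pair and an IDR summit (96.2%) and at 15 of 16 with the pair and no IDR summit (93.8%). It was found at 15 of 19 genes with an IDR summit and no pair (78.9%), at 137 of 285 genes with neither (48.1%) and at 605 of 612 tRNA genes (98.9%).

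The T-box core GGTGT, on either strand within 50 bp of the summit, was found at 16 of the 44 IDR members (36.4%, exact interval 22.4 to 52.2), against 119 of all 690 IDR peaks (17.2%). It was found at 6 of the 25 IDR members with the word pair (24.0%) and at 10 of the 19 without the pair (52.6%). This difference was not tested, and the core and the A word share letters. The pair was scored at the nearest gene, so the 19 include the peak at C51F7.4. Its summit lay between the words upstream of C51F7.3, and GGTGT stands between those words. At W01C9.6, which lacked the pair, GGTGT stands within tggtgtat, a stretch that resembles the A word. A run of TTTTT within the same window was found at 2 of the 44 IDR members (4.55%), against 340 of the 690 IDR peaks (49.3%). Within 100 bp it was found at 25 of the 44 (56.8%), against 551 of the 690 (79.9%). Taken singly and without mismatches, the B-box word stood within 50 bp of the summit at 13 of the 44 IDR members (29.5%) and the A-box word at 17 (38.6%), against 44 (6.38%) and 155 (22.5%) of the 690 IDR peaks. At the 8358 pooled peaks beside neither a snoRNA nor a tRNA gene the B-box word was found in 0.802% of windows and the A-box word in 7.01%. That set includes the weak entries of the pooled list, so its threshold is unlike that of the IDR members. Of the 155 IDR peaks with the exact A-box word, 17 were members and 11 lay beside tRNA genes, so most lay elsewhere. At the 78 IDR peaks beside tRNA genes the exact B-box word was found at 26 (33.3%) and the exact A-box word at 11 (14.1%), so the share with the exact A-box word was lower there than among all IDR peaks.

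A larger share of the members than of the whole pooled list passed the reproducibility test: 41.5% of the 106 (exact interval 32.0 to 51.5) against 7.88% of the 8759 pooled peaks. Likewise 52 of 106 members (49.1%) had a −log10 q of at least 2, against 10.3% of all pooled peaks. A summit of the replicate's own list within 100 bp was found for 43 of the 44 IDR members in replicate 1 and for 43 in replicate 2, and for 42 in both (95.5%), close to the 664 of all 690 IDR peaks (96.2%). The exceptions were F38E11.14, an intronic snoRNA gene with no such summit in replicate 2, and ZK20.9, an independent gene with none in replicate 1. Of all 106 members, 91 were matched in replicate 1 and 81 in replicate 2. Pooled and replicate summits nearly coincided: the median shift from the pooled summit was 8 bp in replicate 1 and 10.5 bp in replicate 2 over the 42 members found in both, and in 40 of the 42 both summits lay within 50 bp. Small shifts were partly set in advance, since pooled peaks were called on both replicates together and only summits within 100 bp were matched. The summits of the replicates were not compared with each other.

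**Figure D3:**
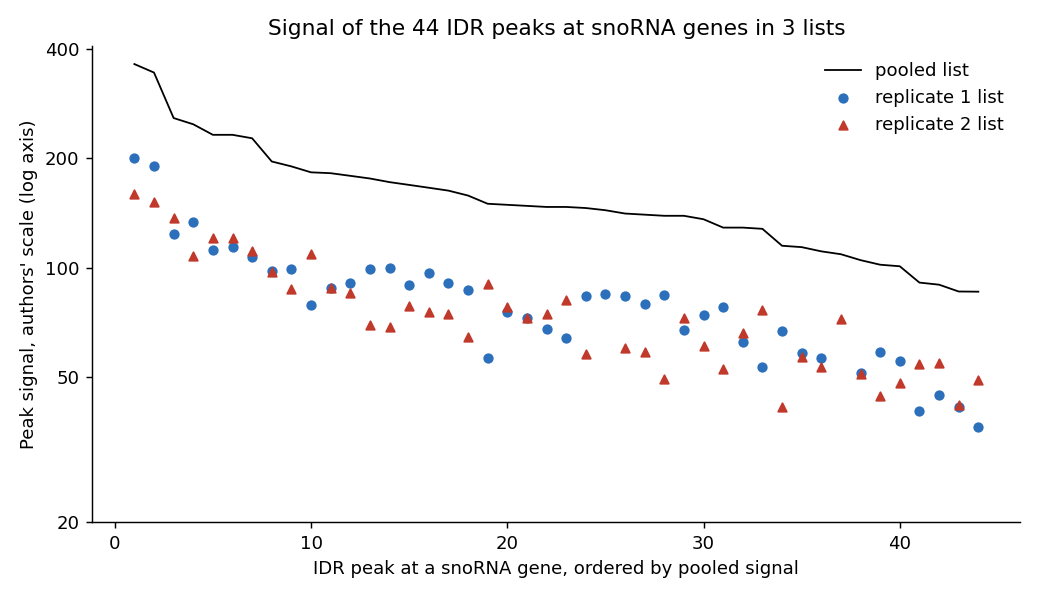
Signal of each of the 44 IDR peaks at snoRNA genes (authors' scale, log axis) in the pooled list (line), the replicate 1 list (circles) and the replicate 2 list (triangles), ordered by pooled signal; the scale is set within each list, so only the order within a list can be read. Pooled signal falls from 363 at C51F7.4 to 86.0 at F30H5.4, and both replicates place C51F7.4 highest, at 200 and 160.

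Peak signal is the authors' own value, on a scale set within each list, and serves here to rank peaks. The IDR members had a median pooled signal of 147 (range 86.0 to 363), against 134 for all 690 IDR peaks (range 86.0 to 1661), and all 106 members a median of 71.0, against 40.5 for all pooled peaks. Peaks at snoRNA genes were not the strongest of the study: 4 were among the 100 strongest IDR peaks and 30 among the 345 strongest. Signals of the 42 members found in both replicates ran from 36.6 to 200 in replicate 1 (median 79.3) and from 41.5 to 160 in replicate 2 (median 72.7). Across these 42 members the replicates had a Spearman rho of 0.717 and, on log2 signal, a Pearson r of 0.779; the peaks share both libraries and the same control and were selected for being reproducible, so this is a description. IDR members with and without the word pair at their nearest gene had like signal, with medians of 149 and 147. Those without it include the strongest, C51F7.4, whose summit lay between the words upstream of C51F7.3.

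Among intronic snoRNA genes, the strongest peak was at Y43F8C.22 (V:19643050-19643187, minus strand), in an intron of Y43F8C.7. Its pooled signal was 232, with 112 in replicate 1 and 121 in replicate 2, and its summit lay 34 bp upstream of the snoRNA start (offset -34). ZK994.7 (V:8500579-8500645), in an intron of the peroxidasin gene pxn-1, had a pooled signal of 183, with 78.9 in replicate 1 and 109 in replicate 2, and no word pair. C05D2.15 (III:5602054-5602179), in an intron of madf-11, had a pooled signal of 182, with 88.0 in replicate 1 and 88.3 in replicate 2. D1046.6 (IV:8927265-8927393), in an intron of cfim-2, a gene named for the pre-mRNA cleavage factor Im, had 169, with 89.7 in replicate 1 and 78.7 in replicate 2. These 4 peaks stood above the median of all IDR peaks in the pooled list.

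Signal was closer to that median at the next 4 intronic genes. M106.6 (II:10840317-10840391), in an intron of the condensin gene mix-1, had 163, with 90.7 in replicate 1 and 74.5 in replicate 2. F55A11.10 (V:11782992-11783082), in an intron of F55A11.6, had 150, with 56.6 in replicate 1 and 90.1 in replicate 2. Y38F2AR.14 (IV:2408508-2408635), in an intron of Y38F2AR.12, had 149, with 75.7 in replicate 1 and 78.2 in replicate 2. The eighth, F38E11.14 (IV:9477629-9477699) in an intron of cng-3, a cyclic nucleotide-gated channel gene, had 144, with 85.0 in replicate 1 and no matched peak in replicate 2. The other 4 intronic IDR members had pooled signals of 101 to 139. Of these first 8, 6 held the word pair, with ZK994.7 and F38E11.14 as the exceptions.

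The promoters of the host genes (from 1000 bp before the start to 200 bp after it) were set against the background of 3.12% of all 19973 protein-coding genes with an IDR summit in the promoter. Of the 13 intronic snoRNA genes with an IDR summit, 1, C05D2.15, had a host, madf-11, with such a summit, and nothing particular to the hosts is read from this count. The strongest member of all lay at 2 snoRNA genes. Its summit, at position 12303640 of chromosome V, lay 41 bp into C51F7.4 (V:12303599-12303693), whose first base touches an exon of frm-7, and 68 bp upstream of C51F7.3 (V:12303708-12303783), which is intronic in the same gene. Its pooled signal was 363, with 200 in replicate 1 and 160 in replicate 2. C51F7.4 is the nearer gene and so the peak was counted among the exon-overlapping ones, while the word pair lay upstream of C51F7.3, 99 and 44 bases before its start, on either side of the summit. This peak alone had 2 snoRNA genes within 200 bp, which is why 44 IDR members stand for 45 genes.

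Independent snoRNA genes overlap no protein-coding gene on either strand, and the strongest peak among them was at F59C6.15 (I:10516978-10517150), with a pooled signal of 344, 190 in replicate 1 and 152 in replicate 2, and a summit 121 bp upstream (offset -121) in the promoter of the coding gene F59C6.18. W03C9.9 (II:11960898-11960959) had 258, with 124 in replicate 1 and 137 in replicate 2, and ZK265.10 (I:8259437-8259498) had 248, with 134 in replicate 1 and 108 in replicate 2. T06C12.16 (V:15873855-15873926) had 227, with 107 in replicate 1 and 111 in replicate 2. Pooled signals at the next 4 lay between 146 and 148. C46C2.8 (IV:9191261-9191333) had 148 in the pooled list, 72.8 in replicate 1 and 72.9 in replicate 2. H09I01.2 (IV:8253094-8253165) had 147, with 68.1 in replicate 1 and 74.6 in replicate 2. ZK643.9 (III:8937767-8937897) had 147, with 64.3 in replicate 1 and 81.4 in replicate 2, and Y75B12B.12 (V:15190976-15191093) had 146, with 83.7 in replicate 1 and 58 in replicate 2. The order of these 4 genes differed between the replicates. Of these 8 genes, W03C9.9, T06C12.16 and Y75B12B.12 held the word pair. The remaining 12 had pooled signals of 86.0 to 141.

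Outside those classes, the peak next in strength to C51F7.4 was at T02E1.9 (I:8224474-8224544), a gene that overlaps an exon of spe-12 on the opposite strand, with a pooled signal of 232, 114 in replicate 1 and 121 in replicate 2. T03F7.8 (V:11314258-11314332), in an intron of cutl-18 on the opposite strand, had 196, with 98.0 in replicate 1 and 97.5 in replicate 2. Both held the word pair. Median pooled signal among IDR members was 150 for the 12 at intronic genes (range 101 to 232), 177 for the 6 at opposite-strand intronic genes, 169 for the 6 at exon-overlapping genes and 138 for the 20 at independent genes (range 86.0 to 344), and the ranges of intronic and independent members overlapped.

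Intronic snoRNA genes had a pooled summit less often than independent ones, and the difference was not stable. Of 142 intronic genes, 32 had a pooled summit within 200 bp (22.5%, exact interval 16.0 to 30.3), against 45 of 124 independent genes (36.3%, interval 27.8 to 45.4). The odds ratio, intronic over independent, was 0.512 (95% interval 0.287 to 0.904), with a two-sided Fisher's exact p of 0.0150 and a Benjamini-Hochberg adjusted p of 0.0301 over the 2 lists compared. With an IDR summit there were 13 of 142 intronic genes (9.15%, interval 4.97 to 15.1) and 20 of 124 independent genes (16.1%, interval 10.1 to 23.8), an odds ratio of 0.525 (interval 0.228 to 1.17) that did not pass the threshold of 0.05 (Fisher's exact p = 0.0956, adjusted p = 0.0956). Genes of the same class within 500 bp of each other were also counted once, with a summit at 32 of 127 intronic and 45 of 123 independent loci. By the same Fisher's exact test the pooled call was then lost (odds ratio 0.585, adjusted p = 0.112). It was lost too when replicate 1 was left out by using only the strongest 8759 peaks of replicate 2 (Fisher's exact test, 0.553, adjusted p = 0.0893). With only the strongest 8759 peaks of replicate 1 the call was kept (Fisher's exact test, 0.444, adjusted p = 0.00618). The call also depended on the distance and on how opposite-strand genes were counted. In each of these settings the odds ratio stayed below 1.

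**Figure D4:**
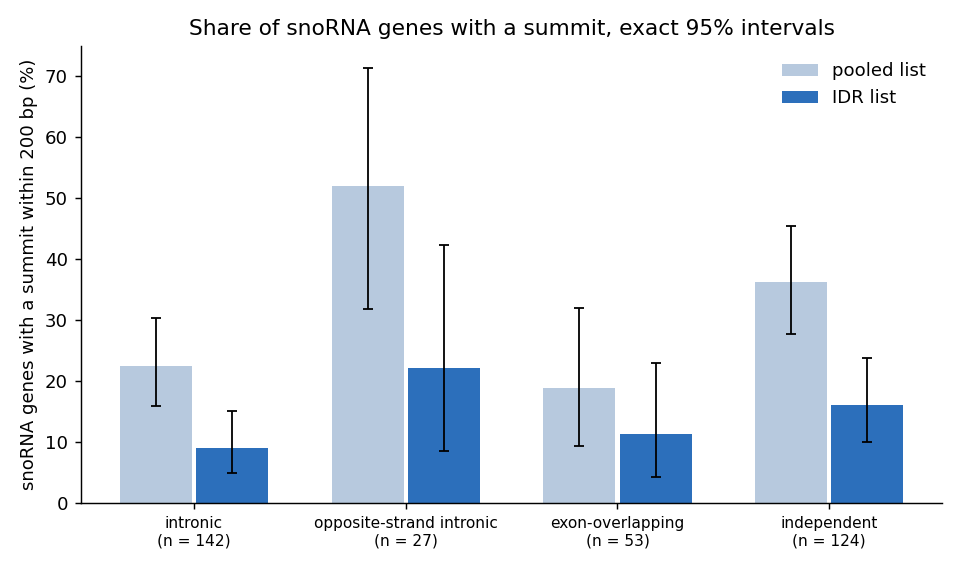
Percent of snoRNA genes of each class with a summit within 200 bp in the pooled list (light bars) and in the IDR list (dark bars), with exact 95% intervals; n is the number of annotated genes. Intronic genes stand at 22.5% and 9.15%, and independent genes at 36.3% and 16.1%, with overlapping intervals in the IDR list.

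Of the 27 snoRNA genes in introns of the opposite strand, 14 had a pooled summit (51.9%, interval 31.9 to 71.3) and 6 an IDR summit (22.2%, interval 8.62 to 42.3); they were set apart from the 2 classes that were tested. Of the 53 exon-overlapping genes, 10 had a pooled summit (18.9%) and 6 an IDR summit (11.3%). The length of the snoRNA gene also moved with these counts. Of 95 genes of 100 bases or shorter, 26 had an IDR summit (27.4%, interval 18.7 to 37.5), against 19 of 251 longer genes (7.57%, interval 4.62 to 11.6). Box C/D snoRNAs are generally shorter than box H/ACA snoRNAs, but the annotation does not give the type, and box words were found in too few genes to assign it: TGATGA in the first 25 bases together with CTGA in the last 15 was present in 13 of the 95 shorter and 2 of the 251 longer genes, and ACA in the last 6 bases in 7 and 73. Among shorter genes 6 of 42 intronic (14.3%) and 12 of 30 independent genes (40%) had an IDR summit, and among longer genes 7 of 100 intronic (7%) and 8 of 94 independent genes (8.51%) did. The word pair was present at 18 of the 26 shorter genes with an IDR summit (69.2%) and at 8 of the 19 longer ones (42.1%).

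Summits lay mostly just upstream of the snoRNA start. Over the 44 IDR members the median offset, counted along the snoRNA strand with upstream negative, was -33.5 bp (quartiles -51.2 and -18.2, range -199 to 117). The summit was upstream in 38 of 44 (86.4%), and 1 to 100 bp upstream in 35 (79.5%). The 62 members outside the IDR list were more scattered, with a median of -17.5 bp, quartiles of -58.8 and 66, and 23 (37.1%) within 1 to 100 bp upstream. Some were further summits at genes that also had an IDR member, at W03C9.9 (offset 139), ZK20.9 (109), T03F7.8 (152) and T19B4.8 (150). T26A8.6 and C16D9.10 also had more than 1 of these summits. Among the strongest 690 peaks of each replicate, the 40 peaks at snoRNA genes in replicate 1 had a median offset of -36 bp and the 44 in replicate 2 one of -27.5 bp. For IDR peaks at tRNA genes the median was 12.0 bp downstream of the start (78 peaks, quartiles -16.8 and 49.0), and for the 8 at small nuclear RNA genes it was -1 bp. In tRNA genes the A and B boxes lie inside the gene.

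By class, the median offset of IDR members was -30.5 bp at the 12 intronic genes (quartiles -34.2 and -14.8, range -73 to 44) and -40.5 bp at the 20 independent genes (quartiles -62.2 and -25.8, range -199 to 7). Summits of both classes were mostly upstream, in 10 of 12 intronic and 19 of 20 independent members, and their ranges overlapped. Where the word pair was present the medians were -30.0 bp for 9 intronic and -39.5 bp for 10 independent members. Over all classes, the 25 IDR members with the pair had a median offset of -31.0 bp (quartiles -41.0 and -16.0). The 19 without it also lay mostly upstream, with a median of -40.0 bp (quartiles -69.5 and -25.5). This difference was not tested. The pair was scored at the nearest gene, so the 19 include C51F7.4, whose summit lay between the words upstream of C51F7.3. The 6 opposite-strand members had a median of -11.0 bp and the 6 exon-overlapping ones -53.0 bp. The farthest downstream IDR summit was that of B0334.12, a gene in an intron of twk-5 on the opposite strand, at 117 bp.

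**Figure D5:**
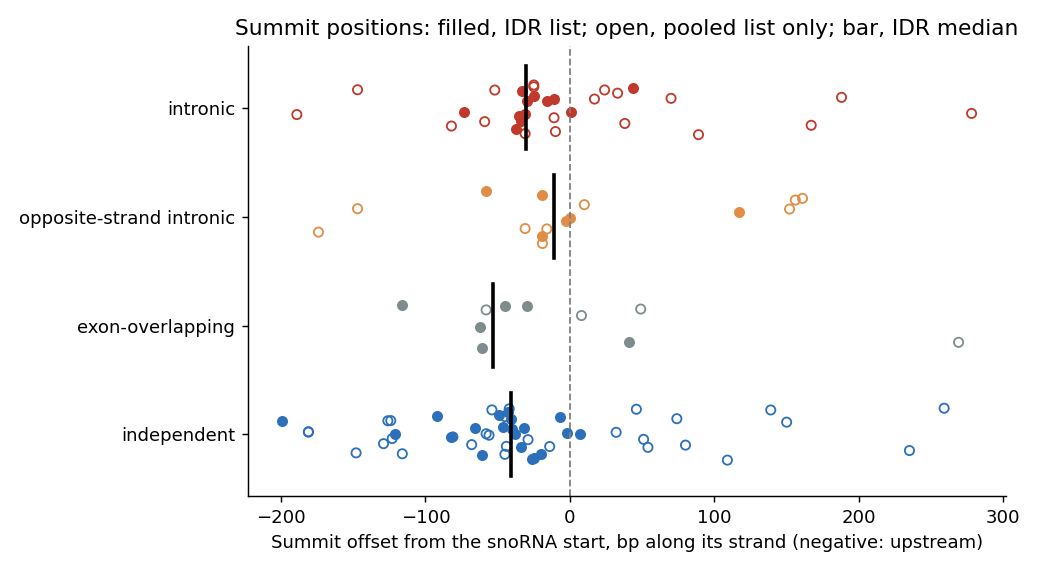
Distance of each summit from the start of its nearest snoRNA gene along the snoRNA strand (negative is upstream), for the 44 IDR members (filled) and the 62 members of the pooled list only (open), by gene class with intronic genes at the top; vertical bars are IDR medians and the dashed line is the snoRNA start. IDR medians are -30.5 bp for intronic and -40.5 bp for independent genes, and most filled points lie left of the dashed line.

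The number of members depended on the distance allowed, with 88 pooled and 41 IDR members at 100 bp, 106 and 44 at 200 bp, and 143 and 49 at 500 bp. Just inside 200 bp lay the summits at C24G7.6 (189 bp from the gene, pooled signal 43.2, not in the IDR list) and W06H8.17 (199 bp, signal 89.9, in the IDR list). Just outside it were those at C02F5.15 (209 bp, signal 37.3) and a weaker peak at T27A3.9 (232 bp, signal 41.8), neither in the IDR list.

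The IDR members were spread over the autosomes, with 11 on chromosome I, 11 on II, 4 on III, 8 on IV and 10 on V. None was on the X chromosome, where 0 of 33 snoRNA genes had an IDR summit (exact interval up to 10.6%). The share of all IDR peaks on the X chromosome was not counted, so nothing particular to snoRNA genes is read from this. Some members outside the IDR list did lie there, among them the peak at C53B7.8, a gene with the word pair. None of the 44 summits lay within 200 bp of a tRNA or small nuclear RNA gene, so these 44 were not tRNA peaks counted a second time. Outside the IDR list, the summit at position 8247702 of chromosome V, at C16D9.10, did lie within 200 bp of a tRNA gene. In all, 13.0% of the 346 snoRNA genes had an IDR summit (interval 9.65 to 17.0), against 84 of 612 nuclear tRNA genes (13.7%, interval 11.1 to 16.7) and 9 of 129 small nuclear RNA genes (6.98%, interval 3.24 to 12.8). Promoters of protein-coding genes held 14 of the 44 summits (31.8%, interval 18.6 to 47.6), against 435 of all 690 (63.0%, interval 59.3 to 66.7). Sequence repeats touched few IDR members. Within 50 bp of the summit, 1 of the 44 (ZK643.9) held 36-base stretches found more than once in the genome, and they made up 15.2% of its window. Outside the IDR list the shares were larger at some independent genes. They were 42.4% at T08B6.64, 37.9% at the stronger peak of T26A8.6, 36.4% at F25H2.15 and 33.3% at K02F6.11.

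Genes for the proteins that work with snoRNAs were examined in the same IDR list. Of 10 genes for snoRNP proteins and assembly factors, 3 had an IDR summit in the promoter, against 3.12% of all 19973 protein-coding genes. They were fib-1, which encodes the box C/D methyltransferase fibrillarin, with a signal of 286, ruvb-1, an AAA ATPase of snoRNP assembly, with 151, and nol-56, a core protein of box C/D particles, with 90.3. The other 7, nol-58, M28.5, dkc-1, Y66H1A.4, Y48A6B.3, nola-3 and ruvb-2, had none. Of the 11 matched genes for the snRNA activating protein complex, TBP and RNA polymerase III factors, among them snpc-4, brf-1 and rpc-1, 0 had one.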

How the data were processed

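ChIP-seq was done on 2 biological replicates, and the narrowPeak lists in ce11 were used as deposited. The deposited metadata state that the authors called peaks on the alignment of each replicate and on both together, always against 1 control alignment, and made the IDR list from these lists. Peak signal (column 7) and the −log10 q-value (column 9) are as deposited by the authors, on a scale set within a list. The aligner, caller and read depth are not given in the sources used here. Intervals cover counting error only.

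Summits (column 2 plus column 10) were compared with gene positions of Ensembl release 115 and the RefSeq sequence of WBcel235 (the same build as ce11), with scipy 1.17.1 in Python 3.11.15, and given to the nearest snoRNA gene. Intronic genes lie within an intron of a coding gene on the same strand without touching an exon. The only tests were Fisher's exact tests of intronic against independent genes, with Benjamini-Hochberg adjustment over 2 lists; each gene was 1 unit although neighbours can share a summit. The code was tested on simulated summits. Described by name were the 8 strongest intronic, 8 strongest independent and 3 strongest other IDR members. Members and gene lists were chosen with earlier results of these data known, and the word pair, its mismatch limit and the split by length after the data were seen. snpc-1.5 and snpc-3.3 were not matched.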

Additional observations from a re-analysis of the deposited data

How the results depend on the processing

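The lower share of intronic than independent genes with a pooled summit (odds ratio 0.512, adjusted p 0.0301) kept its direction but lost its call at 100 bp (odds ratio 0.602) and 500 bp (0.727), with opposite-strand genes counted as intronic (0.658), with loci in place of genes (0.585) and with peaks of −log10 q of at least 2 (0.590). Leaving out replicate 2 gave 0.444 with the call kept, and leaving out replicate 1 gave 0.553 with the call lost. In settings added after the data were seen, genes of 100 bases or shorter gave 0.376 and longer genes 0.510, neither called. Fewer genes entered those comparisons. Why the call was lost was not tested for any setting. For IDR summits no setting gave a call, with odds ratios from 0.255 to 0.863.

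The −log10 q limit left 52 of 106 members. Matching summits within 200 bp found all 44 IDR members in both replicates (100%). Windows of 100 bp raised the share of all members with GGTGT to 41.5%, with TTTTT to 58.5% and with TGGCNNAG to 26.4%, and of IDR members with TTTTT to 56.8%, since the window is wider. The word pair, at 57.8% of genes with an IDR summit, was found at 13.3% with 0 and 88.9% with 2 mismatches a word. Median offsets stayed upstream in every setting tried, from -24.0 to -35.0 bp for all members and from -27.5 to -36.0 bp for IDR members. No paired analysis was possible because the 2 replicates form 1 group. Read depth is unknown, so peaks that are missing from a list may lie under its limit.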
